A study of Arabidopsis thaliana with 36 samples.

Results

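Large polysomal RNA was compared with small polysomal RNA in the aerial parts of plants that overexpress CIRCADIAN CLOCK ASSOCIATED 1, a MYB-related transcription factor of the circadian clock. Of the 36 arrays of the series, 24 enter the comparison. They are the 12 arrays of large polysomal RNA and the 12 arrays of small polysomal RNA, paired by time and replicate number. Each pair was taken as 2 fractions of 1 extract. The 12 arrays of non-polysomal RNA of the same times and numbers are given beside them for the level of a gene. All plants carried the same genotype, CCA1-ox in the Columbia background. At harvest they were 10 days old, raised on agar that held 1% sucrose, in days of 16 h light and 8 h darkness. The harvests were at 6am (zeitgeber time 0 h, lights on), 12pm (6 h), 6pm (12 h) and 12am (18 h), with 3 replicates each. The promoter of the transgene is not given in the sources used here, wild-type plants are not analysed here, and the probe set of CCA1 carries no gene name in the annotation, so the overexpression was not checked on these arrays. Whether replicates are separate batches of plants is not stated in the labels, and p-values then cover only how these extracts vary, which may be technical in part.

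Ribosomes that translate an mRNA at the same time form a polysome, and a sucrose gradient sorts polysomes by mass, so mRNAs with many ribosomes sediment with the large ones. How many ribosomes an mRNA holds depends on how often translation starts, on how fast ribosomes move and on how long the coding sequence is. In leaves the cytosol, the plastids and the mitochondria each hold ribosomes of their own, and the plastid genome encodes core subunits of the photosystems, of the cytochrome b6f and NDH complexes and of the plastid ribosome, while most of their partner subunits come from nuclear genes. The RNA on these arrays was copied from an oligo(dT) primer, which binds a poly(A) tail.

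Values are log2 expression values of probe sets, and a difference is the large value minus the small value of the same extract, so that 1 is a 2-fold difference. Of 22810 probe sets, 12635 passed the filter on low values, a value of 5 or more on at least 3 of the 36 arrays, and 6805 genes could be named. Most of these carry a locus identifier as their name, so the lists of named genes below hold only part of each family. As the mean of the 4 times, 8433 probe sets were called (66.7% of those tested), of which 4256 were higher in large polysomes (33.7%) and 4177 lower (33.1%) at an adjusted p under 0.05 in limma. The median difference of all probe sets was -0.0005, and the 5th and 95th percentiles were -0.76 and 0.77. Differences of at least 2-fold were fewer, with 292 probe sets higher (2.31%) and 281 lower (2.22%). In all 12 extracts alike, 1876 probe sets were higher (14.8%) and 1632 lower (12.9%).

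These differences are relative to the rest of each array. The poly(A) spike-in probe sets averaged 5.57 on the large arrays (4.86 to 6.50) and 6.95 on the small arrays (6.19 to 8.09). They were lower on the large array in 12 of 12 extracts (difference -1.38, exact sign-flip permutation test, two-sided p = 0.0004883, the smallest that 12 pairs allow). With arrays shifted to equal spike-in signal the median of all probe sets was 1.38 higher in large polysomes, none of the 20 list medians that lay under 0 stayed there, and 9 of 66 plastid-encoded genes stayed under 0. "Higher" and "lower" below therefore mean higher or lower than the bulk of the RNA of the same fraction. The ratio of 3' to 5' signal of ubiquitin was smaller on the large arrays (difference in log2 -0.239, lower in 9 of 12 extracts, exact p = 0.0078), while that of GAPDH differed by 0.105 (exact p = 0.385). The part of spike-in signal and RNA integrity in the results was not tested. Of the markers of green tissue, 3 of 14 were measured. PSAN was higher in large polysomes, and RCA (0.07) and LHCB4.2 (-0.06) were not called. The root marker PYK10 was measured and was higher by 0.23, the stomatal marker FMA was lower by 0.20 (adjusted p = 0.029 in limma), and no seed or pollen marker was measured. PYK10 was not called without replicate 2 or 3, without the 6am arrays, with quantile normalization or with unpaired arrays. FMA was not called without replicate 1 or 3, without the 6am, 12pm or 12am arrays or with no filter. The call of FMA was also lost on leaving out many of the single extracts. Both fractions of a pair were taken to come from the same plants, whereas in levels set across times fewer cells of a type and less RNA per cell cannot be told apart.

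The genes of cold- and dehydration-induced hydrophilic proteins formed the list most displaced towards large polysomes. All 7 measured dehydrin and LEA genes were higher, with a median difference of 1.46, while the median of all probe sets was near 0. COR15B, which encodes a stroma-targeted protein that protects plastid membranes in the cold, had a lowest, median and highest value of 8.92, 12.06 and 13.25 on the large arrays, against 5.85, 10.04 and 11.28 on the small arrays. The ranges overlap because the level itself changed over the day, and within every extract the large array was higher. The difference was 2.06 ± 0.08 (SE, 12 extracts), a 4.17-fold excess (adjusted p = 1.6e-10 in limma), and lay between 1.35 and 3.07 in single extracts. Its paralogue COR15A was higher by 1.49 ± 0.07. COR47, an acidic dehydrin, ran from 12.79 to 14.03 on the large arrays (median 13.30) and from 11.06 to 12.59 on the small arrays (median 11.68). These ranges did not overlap at any time, and the difference of 1.66 ± 0.06 varied little between extracts, from 1.25 to 1.87. LTI30, another dehydrin, was higher by 1.46 ± 0.11, and M17, a LEA protein, was 2.3-fold higher (12 of 12 extracts). The 2 members nearest to 0 were LEA18 (0.84 ± 0.21, higher in 11 of 12 extracts) and AtLEA4-1 (0.53 ± 0.12). In the non-polysomal fraction COR47 had a median of 10.27 and COR15B of 9.48, under the medians of both polysomal fractions, whereas that of COR15A was 10.44, against 11.56 on the large and 10.13 on the small arrays.

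**Figure D1:**
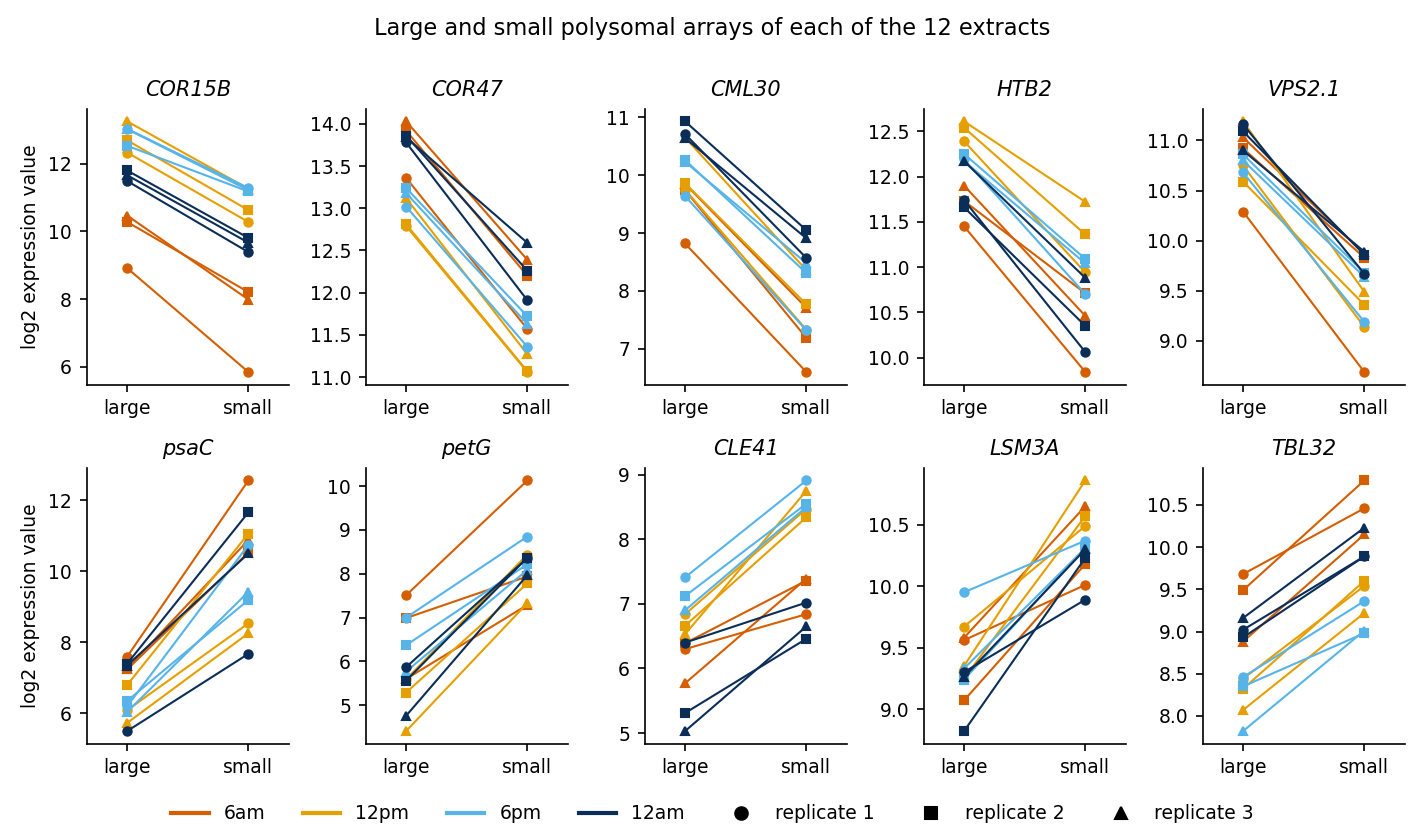
Log2 expression values of 10 genes on the large (left) and small (right) polysomal array of each of 12 extracts, 1 line per extract, coloured by time of harvest and marked by replicate. All 12 lines fall from large to small for COR15B, COR47, CML30, HTB2 and VPS2.1, and all 12 rise for psaC, petG, CLE41, LSM3A and TBL32.

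The single nuclear gene with a symbol that differed most was CML30, a calmodulin-like protein that belongs to the calcium sensors of the cell. It had values of 8.82 to 10.93 on the large arrays (median 10.04), against 6.60 to 9.05 on the small arrays (median 8.04). The 2 ranges overlapped only at their ends, and the difference was 2.12 ± 0.07, or 4.35-fold (adjusted p = 8.9e-11 in limma). Larger differences belonged to genes known here by locus alone. AT1G64370 had 8.51 to 10.89 on the large arrays (median 9.95) and 4.84 to 7.77 on the small arrays (median 6.50), a 10.7-fold excess (difference 3.42 ± 0.12). Its lowest large value exceeded its highest small value. AT4G19200 was higher by 2.94 ± 0.12 and AT5G45350 by 2.24 ± 0.12, and neither overlapped between the fractions. Of the other rises with a symbol, Y14, a core protein of the exon junction complex, was higher by 1.45 ± 0.08, and 3xHMG-box2, a chromosomal HMG-box protein, by 1.43 ± 0.07. ARPN, the small blue copper protein plantacyanin, was 2.68-fold higher. ISU1, a scaffold on which mitochondrial iron-sulfur clusters are built, was higher by 1.34 ± 0.07. The symbols in the last 3 sentences and CML30 were picked after values were seen, as the largest rises among nuclear genes with a symbol.

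Proteins that package or bind DNA and RNA did not move as a block. Of 7 histone genes, 6 were higher in large polysomes and 0 lower, with a median of 0.52. HTB2, a core histone H2B, had 11.45 to 12.61 on the large arrays (median 12.17) and 9.84 to 11.72 on the small arrays (median 10.79), and its difference was 1.30 ± 0.07 (adjusted p = 2.6e-09 in limma). The large array was the higher of the pair in 12 of 12 extracts. The other H2B genes were higher by 0.72 ± 0.08 (HTB4), 0.65 ± 0.09 (HTB1) and 0.52 ± 0.08 (HTB11). HTR12, the centromeric histone H3, had a difference of 0.19 ± 0.10, which missed the threshold (adjusted p = 0.13 in limma). LSM proteins, which form rings on the ends of U6 snRNA or of mRNAs that are about to be decapped, went the other way, with 0 of 6 higher, 5 lower and a median of -0.56. LSM3A had 8.82 to 9.95 on the large arrays (median 9.32) and 9.89 to 10.86 on the small arrays (median 10.31), a difference of -0.98 ± 0.09. Its paralogue LSM3B differed by -0.95 ± 0.09. LSM3B differed by -0.19 at 6am and by -1.15 to -1.25 at the other times, although the test among times missed the threshold (adjusted p = 0.078, F test in limma). Among 9 chromatin remodelling and DNA demethylation genes 6 were higher and 1 lower (median 0.26), but only 3 were higher without replicate 2 and 2 without replicate 3. The lower gene was INO80, the ATPase of its own remodelling complex, at -0.54 ± 0.10.

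Genes of 2 families of membrane traffic lay on the side of large polysomes. Of 9 ATG8 genes, which encode ubiquitin-like proteins that are attached to the autophagosome membrane, 7 were higher and 0 lower (median 0.56). ATG8D had 9.33 to 10.02 on the large arrays (median 9.69) and 8.18 to 9.13 on the small arrays (median 8.71), with no overlap and a difference of 0.98 ± 0.09. ATG8H was higher by 0.97 ± 0.11, ATG8G by 0.78 ± 0.10 and ATG8F by 0.56 ± 0.06, whereas ATG8B differed by -0.04 ± 0.07 (adjusted p = 0.63 in limma). Of 11 ESCRT subunits, which bud vesicles into endosomes, 7 were higher and 2 lower (median 0.47). VPS2.1 of ESCRT-III ran from 10.29 to 11.19 on the large arrays (median 10.88) and from 8.69 to 9.89 on the small arrays (median 9.65), and was higher by 1.33 ± 0.07 (adjusted p = 1.8e-09 in limma). Its lowest large value lay above its highest small value. VPS24.1, which polymerises with it, was higher by 0.85 ± 0.07. VPS20.1, which nucleates the same filament, was lower by 0.58, with an SE of 0.08, in 12 of 12 extracts, and VPS22 of ESCRT-II was lower in 11 of 12. The subunits of one machine thus stood on both sides. None of 5 exocyst subunits passed the test in either direction (median 0.12), although 3 were higher without replicate 1. Nor did any of 3 genes of large RNA polymerase subunits pass (median -0.06), whereas 2 of 7 small RNA polymerase subunits were higher and 2 lower.

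**Figure D2:**
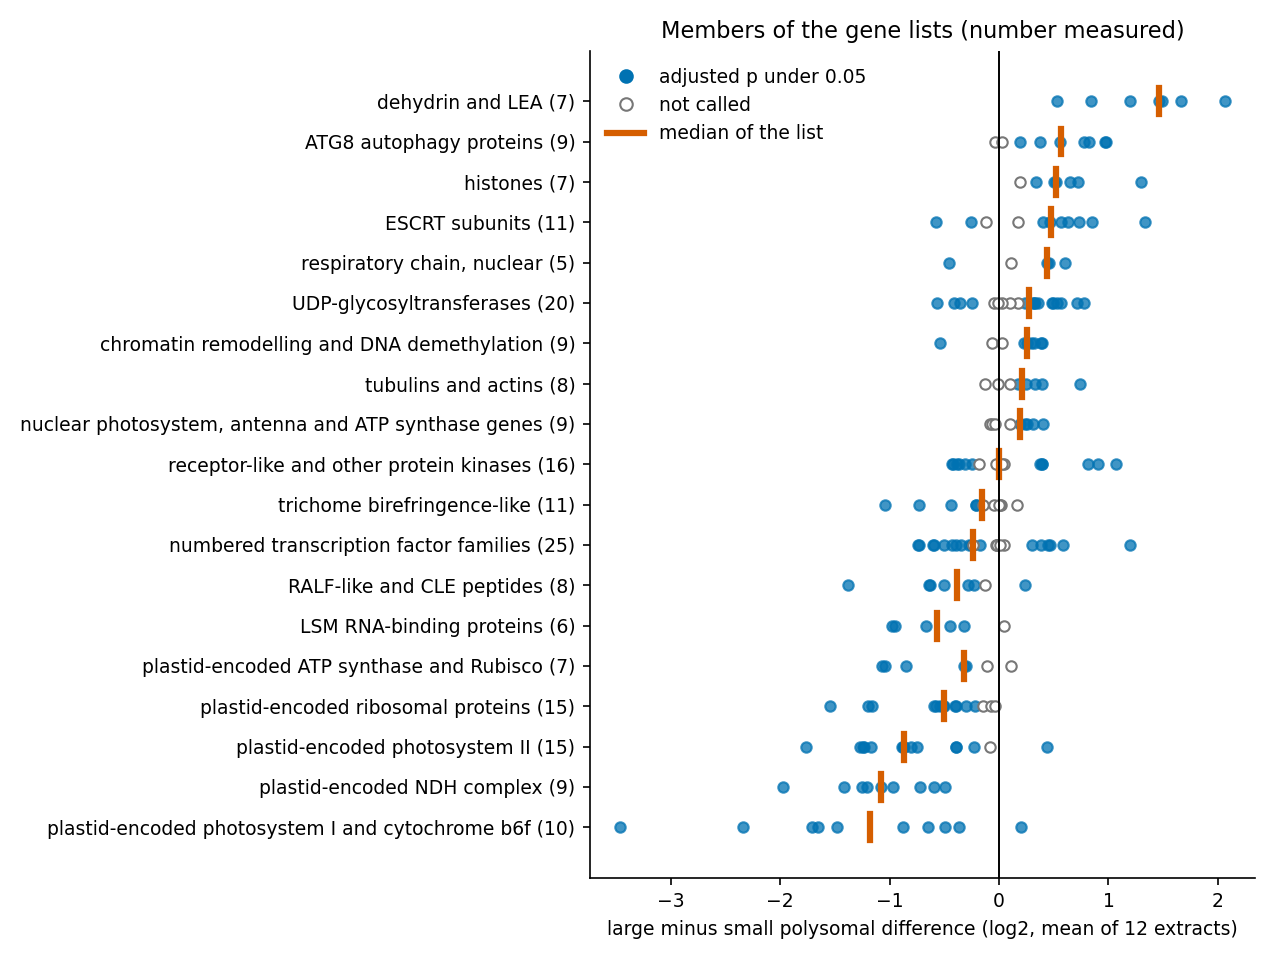
Large minus small difference (log2, mean of 12 extracts) of every measured member of 19 gene lists, 1 point per gene, filled where the adjusted p was under 0.05, with the list median as a bar. All 7 dehydrin and LEA genes lie above 0 with a median of 1.46, and the plastid-encoded lists lie almost wholly under 0, down to psaC at -3.46.

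Redox proteins and enzymes of energy metabolism encoded in the nucleus were mixed. TRXF2, a plastid thioredoxin that switches on Calvin cycle enzymes in the light, was higher by 1.43 ± 0.06, with large values of 8.40 to 11.26 (median 9.98) and small values of 6.73 to 9.74 (median 8.53). The ranges overlap across times, while the difference within extracts lay between 1.08 and 1.69. GRXC2, a glutaredoxin, was higher by 1.36 ± 0.07 and its paralogue GRXC1 was lower by 0.30 (SE 0.07), each past the threshold. The list of 7 thioredoxins and glutaredoxins thus had 3 higher, 2 lower and a median of 0.09. Of 9 nuclear genes of the photosystems, the antenna and the plastid ATP synthase 5 were higher and 0 lower (median 0.19), led by PSBY at 0.40 ± 0.07 and PSAN at 0.31 ± 0.06, small subunits of photosystem II and I. Without replicate 3 it was 3 of the 9, and 1 relative to the bulk after the shift to equal spike-in signal. The antenna genes LHCB4.1 and LHCB4.2 differed by -0.04 and -0.06. None of the 3 Calvin cycle genes SBPASE, RCA and PRK passed the test (0.13, 0.07 and -0.00). Of 5 respiratory genes 3 were higher and 1 lower (median 0.44). The cytochrome c genes CYTC-1 and CYTC-2 were higher by 0.44 ± 0.08 and 0.60 ± 0.16, and SDH2-2, an iron-sulfur subunit of succinate dehydrogenase, was lower by 0.46 in 12 of 12 extracts. The 3 translation genes with a symbol were all higher, but only 1 was without replicate 2 or without replicate 3. FUG1, the initiation factor 2 of plastids, had 10.10 to 12.03 on the large arrays (median 11.44) and 9.72 to 11.16 on the small arrays (median 10.56), a difference of 0.72 ± 0.06.

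Most plastid-encoded transcripts, as copied from the oligo(dT) primer, were depleted from large polysomes relative to the bulk of the RNA. Of 66 such genes, 57 were lower, 2 higher and 7 not called, with a median of -0.74 that was under 0 in each of the 12 extracts; at equal spike-in signal only 9 lay under 0. The largest fall among all named genes was that of psaC, which encodes the subunit of photosystem I that holds its terminal iron-sulfur clusters. Its values were 5.49 to 7.59 on the large arrays (median 6.56), 7.67 to 12.56 on the small arrays (median 10.52) and 9.85 to 13.69 on the non-polysomal arrays (median 12.07). No large value reached the lowest small value, and the difference was -3.46 ± 0.21, or 11.0-fold (adjusted p = 4.6e-09 in limma). It varied between extracts from -4.97 to -2.18. petG, a small subunit of the cytochrome b6f complex, had 4.41 to 7.51 on the large arrays (median 5.69) and 7.29 to 10.13 on the small arrays (median 8.16), a difference of -2.34 ± 0.12. In the list of photosystem I and cytochrome b6f genes 9 of 10 were lower (median -1.18), in photosystem II 13 of 15 (median -0.87), and in the NDH complex 9 of 9 (median -1.08). The falls were smaller for plastid ribosomal proteins, with 12 of 15 lower (median -0.50), for ATP synthase and Rubisco, with 5 of 7 lower (median -0.32), and for RNA polymerase and maturase, with 3 of 4 lower (median -0.47). rbcL, the large subunit of Rubisco, was lower by 1.07 and psbA, the D1 protein of photosystem II, by 1.17, each in 12 of 12 extracts. The primer binds a poly(A) tail, so the arrays need not stand for all RNA of these plastid genes. What share of that RNA was copied was not tested.

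The exceptions were psbD and psaB. psbD, which encodes the D2 protein, had 5.45 to 7.64 on the large arrays (median 6.64) and 4.85 to 8.53 on the small arrays (median 6.12), and was higher by 0.44 ± 0.11 in 11 of 12 extracts (adjusted p = 0.0019 in limma). psaB, a core subunit of photosystem I, was higher by 0.20 ± 0.06 in 10 of 12 (adjusted p = 0.011 in limma). psaB was not called without replicate 2 or 3, without the 6pm or 12am arrays, with quantile normalization or with unpaired arrays, and psbD was not called with unpaired arrays. psbC, which overlaps psbD on the plastid genome, differed by -0.08 ± 0.10 (adjusted p = 0.50 in limma). Over the 66 genes the difference and the length of the gene had a Spearman's rho of 0.319, between 0.017 and 0.374 in single extracts. With the mean level of the gene the difference had a rho of 0.408. The 23 genes shorter than 300 bp had a median of -0.89 and a median level of 9.11, and 22 of them were lower. The 17 genes of 1200 bp or more had a median of -0.54 and a median level of 10.18, and 13 were lower. The part of level in the relation with length was not tested. Neighbouring plastid genes are often transcribed together, so these points are not independent. Of 5 mitochondrion-encoded transcripts, most of them close to the low end of the scale, 4 were lower and 0 higher (median -0.37), and 2 were lower with unpaired arrays. The best measured, cox1, had 6.81 to 10.47 on the large arrays (median 8.82) and 7.62 to 10.90 on the small arrays (median 9.15), a difference of -0.46 ± 0.09. The share of mitochondrial RNA that the oligo(dT) primer copied was not tested either.

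The lists of signalling peptides and of transcription factors held more lower than higher members, as did all 6805 named genes, of which 2466 were lower (36.2%) and 2078 higher (30.5%), with a median of -0.04. Of 8 RALF-like and CLE genes, which encode short precursors of secreted peptides, 6 were lower and 1 higher (median -0.39). CLE41, a precursor of the peptide that keeps vascular stem cells dividing, had 5.03 to 7.41 on the large arrays (median 6.47) and 6.46 to 8.91 on the small arrays (median 7.86). The large array was lower in 12 of 12 extracts, by 1.38 with an SE of 0.10 (adjusted p = 2.5e-08 in limma). CLE44, which encodes the same mature peptide, differed by -0.64 ± 0.13, RALFL32 by -0.63 ± 0.07 and RALFL34 by -0.50 ± 0.06, and RALFL31 was higher by 0.24 ± 0.06. Of 25 genes of numbered transcription factor families 13 were lower and 6 higher (median -0.24), and 8 were lower without replicate 3. WRKY22, a WRKY factor of immune signalling, differed by -0.74 ± 0.08, the MADS-box gene AGL30 by -0.73 ± 0.09, and bHLH121, a regulator of the iron-deficiency response, by -0.59 ± 0.07. The rises included BZIP28 (0.58 ± 0.09), BZIP60 (0.45 ± 0.09) and BZIP17 (0.38 ± 0.11), 3 membrane-anchored factors of the unfolded protein response, and the largest was that of AGL87 (2.3-fold, 12 of 12 extracts). Of the 4 genes with a conserved upstream open reading frame, a short frame before the main one that can hold ribosomes back, BZIP53 was lower by 0.25 (12 of 12 extracts), PMEAMT higher by 0.31 ± 0.06, and SAMDC and CPUORF47 were not called (-0.15 and -0.19).

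Among receptor-like and other protein kinases 6 of 16 were higher and 6 lower (median -0.00). The members with the largest rises were the transmembrane receptor kinases PSY1R (1.07 ± 0.06), CR4 (0.90 ± 0.08) and THE1 (0.81 ± 0.06), each higher in 12 of 12 extracts, and FER was higher by 0.39 ± 0.15. PSY1R, which perceives a growth-promoting peptide, had 8.25 to 9.12 on the large arrays (median 8.84) and 7.18 to 8.20 on the small arrays (median 7.70), with no overlap. The members with the largest falls were the cytoplasmic kinases BIK1 (-0.43 ± 0.08), WNK7 (-0.42 ± 0.07) and APK1A (-0.38 ± 0.07). Of 20 UDP-glycosyltransferases 11 were higher and 4 lower (median 0.27), with UGT74B1 of glucosinolate synthesis at 0.78 ± 0.08 and UGT72B3 at -0.57 ± 0.08. Of 13 serine carboxypeptidase-like genes 6 were higher and 1 lower (median 0.12), and of 11 beta-glucosidases 5 were higher and 2 lower (median 0.11). Tubulin and actin genes had 5 of 8 higher and 0 lower (median 0.21), with TUB7 at 0.74 ± 0.06, and had 2 higher without the 6am arrays. TBL genes, a family whose members acetylate cell wall polymers, had 0 of 11 higher and 5 lower (median -0.15), or 3 lower without replicate 3. TBL32 had 7.82 to 9.68 on the large arrays (median 8.67) and 8.98 to 10.79 on the small arrays (median 9.74), and the difference of -1.04 ± 0.07 held in 12 of 12 extracts. GI, the 1 clock gene with a name here, was higher by 0.29 ± 0.08 (adjusted p = 0.0057 in limma) in 9 of 12 extracts. GI was not called without replicate 2 or 3, without the 6pm arrays or relative to the bulk at equal spike-in signal.

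Several other lists had members on both sides. Ubiquitin-conjugating enzymes had 3 of 12 higher and 4 lower (median -0.09) and ubiquitin-specific proteases 6 of 11 higher and 3 lower (median 0.22). Chaperones had 5 of 12 higher and 3 lower (median 0.00), glutathione transferases 3 of 6 higher and 2 lower (median 0.06), and cytochrome P450 genes 2 of 10 higher and 4 lower (median -0.08). Paralogues stood on opposite sides here: GSTU20 was higher by 0.70 ± 0.07 and GSTU18 lower by 0.61 (SE 0.08), and UBC29 was higher by 0.77 ± 0.09 and UBC28 lower by 0.44 (SE 0.07). Expansins had 3 of 7 higher and 1 lower (median 0.00), xyloglucan endotransglucosylases 4 of 6 higher and 2 lower (median 0.33), and plant defensins and thionin 3 of 7 higher and 1 lower (median 0.18). IQD proteins had 3 of 8 higher and 3 lower (median 0.07), tetraspanins 1 of 6 higher and 0 lower (median -0.02), mediator subunits 1 of 4 higher and 2 lower (median -0.16), and myosins and kinesins 2 of 4 higher and 1 lower (median 0.15). The smaller lists were nuclear NDH subunits with 1 of 3 higher and 1 lower, cellulose synthase-like genes with 2 of 3 higher and 1 lower, and AUX/IAA genes with 0 of 2 higher and 1 lower. The 1 proteasome gene with a symbol, RPN12a, was higher by 0.16 ± 0.06, in 9 of 12 extracts. This call was lost without replicate 2 or 3, without the 6am or 12pm arrays and on leaving out several of the single extracts. It was also lost with quantile normalization, with unpaired arrays and relative to the bulk at equal spike-in signal.

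The largest nuclear falls belonged to genes known here by locus. AT3G09470 had 6.64 to 8.85 on the large arrays (median 7.31) and 9.40 to 10.41 on the small arrays (median 9.99), and was 5.66-fold lower without overlap. A second probe set of this gene was lower by only 0.41, so the size is not settled. AT2G39500 differed by -2.19 ± 0.15 and AT5G57080 by -2.11 ± 0.14. Among genes with a symbol, SBT3.12, a subtilisin-like protease, had 5.50 to 7.93 on the large arrays (median 6.41) and 7.11 to 8.69 on the small arrays (median 8.17), a difference of -1.68 ± 0.16. It was lower in 12 of 12 extracts. GLX2-5, a glyoxalase, differed by -1.13 ± 0.09, QQS, a short protein that affects starch content, by -1.11 ± 0.09, and NGA1, a B3-type transcription factor of leaf margins and style, by -1.04 ± 0.07. Like the rises with a symbol, these were picked after values were seen.

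The span of a gene on the chromosome, introns included, was set against the difference, since a longer coding sequence has room for more ribosomes. No table of protein lengths was used here, so the span stands in for it. Over 6692 nuclear protein-coding genes Spearman's rho was 0.088. The 430 genes under 1000 bp had a median of -0.17, with 111 higher (25.8%) and 201 lower (46.7%). The 243 genes of 6000 bp or more had a median of 0.11, with 102 higher (42.0%) and 38 lower. Short genes were also the more scattered, and 17.7% of them were called with a difference of at least 2-fold, against 2.47% of the longest. CML30, at 647 bp, is one of the short genes that were higher, and so are AT4G15690 (1.80 ± 0.08) and AT4G15680 (1.74 ± 0.10). Long genes that were lower include VIIIB, a myosin (-1.08 ± 0.11, 6431 bp), and AT2G39580 (-1.07 ± 0.12, 6928 bp).

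This relation was not the same in all extracts. At 6am rho was -0.18, -0.044 and -0.042 in replicates 1, 2 and 3, at 12pm it was -0.081, 0.103 and 0.24, at 6pm -0.06, 0.246 and 0.242, and at 12am 0.064, 0.204 and 0.18. It was negative in 5 extracts and positive in 7. Replicate 1 had the lowest value at each of the 4 times, and all 3 extracts of 6am were under 0. Over all genes rho was 0.165 without replicate 1, 0.0557 without replicate 2, 0.0378 without replicate 3, 0.147 without the 6am arrays and 0.0577 without the 12am arrays, against 0.088 with all of them. Genes within an extract share the library and its normalization, so these values describe 12 pairs of arrays.

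**Figure D3:**
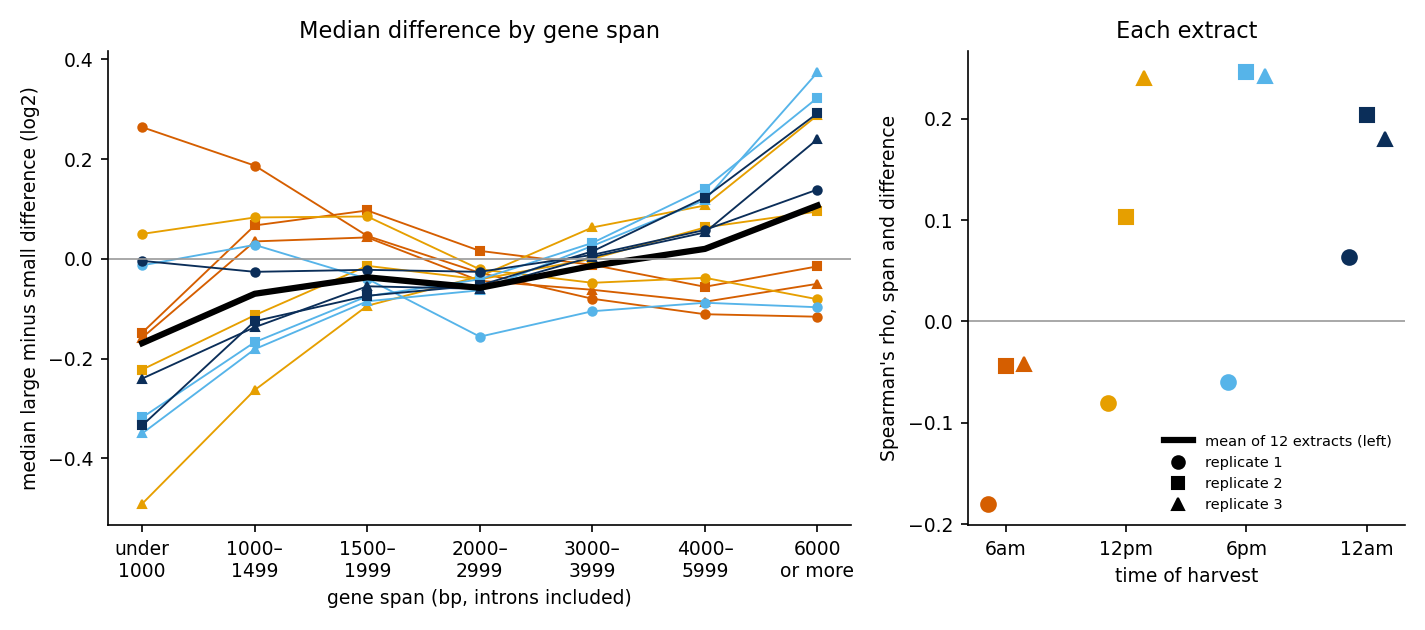
Left, median large minus small difference (log2) of nuclear genes in 7 classes of gene span (bp), 1 thin line per extract and the mean of 12 extracts as a thick line. Right, Spearman's rho between span and difference in each extract by time of harvest, with circles, squares and triangles for replicates 1, 2 and 3 and the same colours for times. The thick line runs from -0.17 for the shortest genes to 0.11 for the longest, and rho runs from -0.18 to 0.246.

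Each time by itself gave 4673 called probe sets at 6am (37% of those tested), 5244 at 12pm (41.5%), 4829 at 6pm (38.2%) and 4105 at 12am (32.5%). Of these, 1935 were called with the same sign at 4 of 4 times and 63 with opposite signs at 2 times. The displaced lists kept their side: the dehydrin and LEA median was 1.71 at 6am, 1.39 at 12pm, 1.25 at 6pm and 1.41 at 12am, and the plastid-encoded median was -0.76, -0.88, -0.51 and -0.76 in the same order. The RALF-like and CLE median was -0.08 at 6am and -0.54, -0.57 and -0.52 at the later times, and that of the LSM genes was -0.13, -0.75, -0.64 and -0.75. Whether these list medians differ among times was not tested.

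The difference itself varied among times for 74 probe sets (0.586% of those tested, moderated F test in limma), of which 31 name 1 gene. In 53 of the 74, the time farthest from the mean of the 4 differences was 6am. How often 6am was the farthest time over all tested probe sets was not computed, so this count need not be particular to the 74. EXPA16, an expansin that loosens cell walls, averaged 7.42 on the large and 4.85 on the small arrays at 6am, a difference of 2.57 ± 0.27. At 12pm, 6pm and 12am the differences were -0.10, -0.15 and 0.63, with both fractions under 5, where the scale is compressed. Its adjusted p was 0.017 in the F test of limma. AT4G32590, well above that level, differed by 1.41 ± 0.16 at 6am (8.82 on the large and 7.40 on the small arrays) and by 0.54, 0.14 and 0.14 at the later times. RAB6A, a small GTPase of the Golgi, changed side: 8.18 on the large and 7.50 on the small arrays at 6am (0.69 ± 0.14), 7.56 on both at 12pm, and 7.48 on the large and 7.96 on the small arrays at 6pm (-0.48). AT5G05710 and AT4G24440 were likewise higher at 6am and lower at 6pm and 12am. AT3G53470 was higher at 6am (0.67 ± 0.11) and differed by -0.22 at 6pm, which missed the threshold (adjusted p = 0.14 in limma), and by -0.31 at 12am (adjusted p = 0.05 in limma). UGT78D2, which glycosylates flavonols and anthocyanins, was higher at 6am (0.69 ± 0.12) and 12pm (0.98), and differed by 0.16 and 0.09 at 6pm and 12am. Not all genes called by the F test were higher at 6am. AT5G57770, with the smallest p among named genes (adjusted p = 0.0008, F test in limma), differed by -1.68 ± 0.12 at 6am. ATIM differed there by -1.58 ± 0.15 and AT5G57650 by -2.62 ± 0.19. AT5G57770 had group means under 5 in both fractions at every time, so its differences are compressed. Its highest value was 3.11 on the large, 5.02 on the small and 6.14 on the non-polysomal arrays, and it passed the filter only with the latter. AT5G57650 had group means under 5 except on the small arrays at 6am, and ATIM was under 5 in both fractions at 12am. Without the 6am arrays 2 probe sets were called by the F test, with unpaired arrays 4, without replicate 1 257, and without replicate 2 or 3 at most 1.

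**Figure D4:**
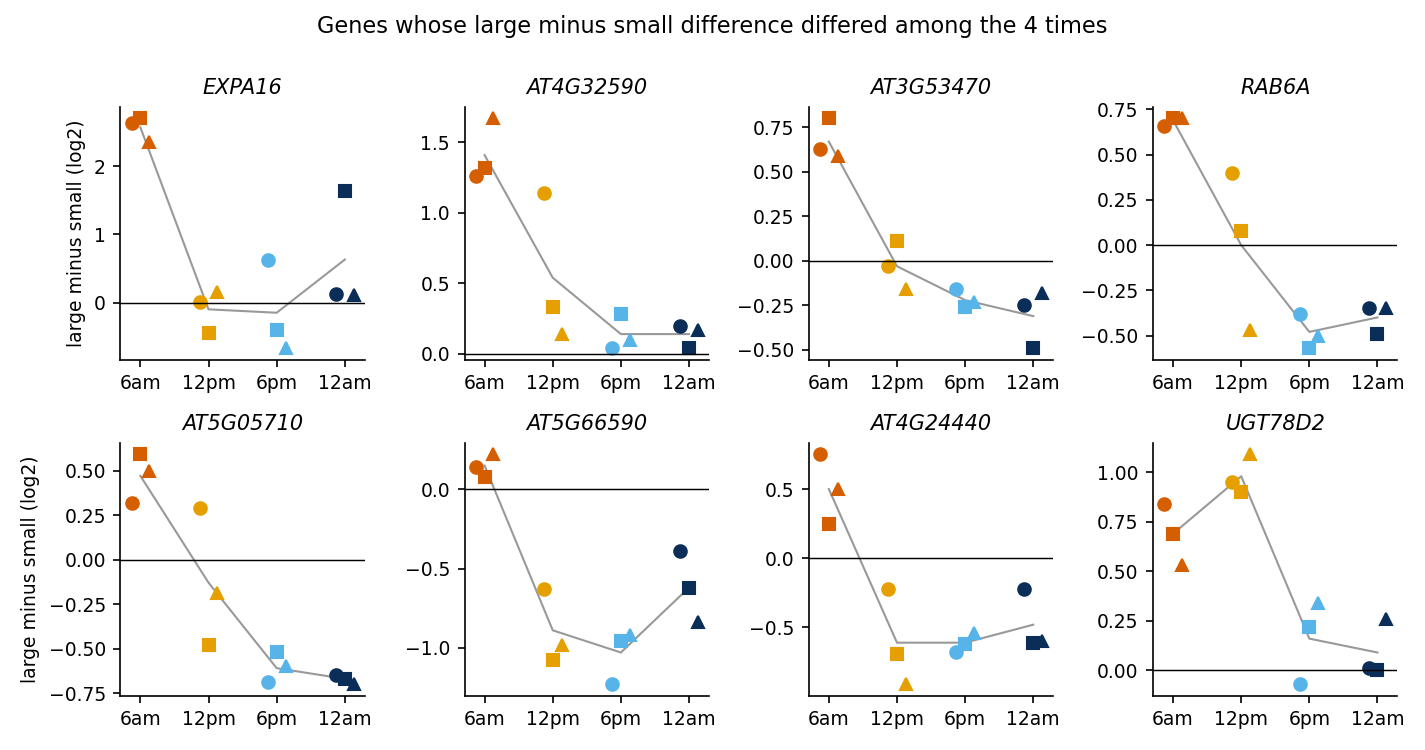
Large minus small difference (log2) in each of 12 extracts for 8 genes whose difference varied among the 4 times in the F test of limma, by time of harvest, with circles, squares and triangles for replicates 1, 2 and 3 and a line through the means. At 6am all 3 extracts lie above 0 for each of the 8 genes, and for RAB6A, AT3G53470, AT5G05710, AT5G66590 and AT4G24440 all extracts of 6pm and 12am lie under 0. Other genes called by the F test, such as AT5G57770 (not shown), lay under 0 at 6am.

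Between the light (12pm and 6pm) and the dark side of the day (12am and 6am) the difference changed for 28 probe sets (0.222%), of which 15 name 1 gene. The count was 3 with unpaired arrays, 5 among probe sets with a mean of 5 or more in both fractions, and 170, 1 and 2 without replicate 1, 2 and 3. AT5G65840 was higher in large polysomes by 1.43 at 12pm and 1.24 at 6pm, and by 0.37 at 6am and 0.07 at 12am (adjusted p = 0.010 in limma). AT2G04570 had the same shape, with 1.21 and 1.23 against 0.16 and 0.10. At 6am and 12am the group means of AT5G65840 lay between 2.41 and 3.35, and those of AT2G04570 between 3.44 and 4.64. Their small differences at these times may therefore be compressed. AT5G28630 was the opposite, with 0.52 and 0.36 in the light against 1.72 at 6am and 2.23 at 12am (adjusted p = 0.0024 in limma). Its group means in the light were under 3 in both fractions, so those differences are compressed. GI, an evening gene of the clock, differed by -0.08 at 6am, 0.28 at 12pm, 0.58 at 6pm and 0.40 at 12am, and neither the F test (adjusted p = 0.33) nor the comparison of light with dark (adjusted p = 0.52, both in limma) passed.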

How the data were processed

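The authors deposited log2 expression values of 36 Affymetrix arrays, made with GCRMA in R 3.1 with affy 1.42.3 per the submitters' processing notes, and other settings are not stated. Per the labels, cDNA was primed with oligo(dT) and labelled as biotinylated cRNA. Values ran from 2.15 to 15.55. The 64 control probe sets were left out, and 12635 of 22810 probe sets were kept (5 or more on at least 3 arrays). Of these 6824 name 1 gene, 263 several and 5548 none. Of the 6824, 6803 have an entry in the RefSeq table (TAIR10.1), which gave symbols and gene spans. Where several probe sets name a gene, the one with the highest mean stood for it. The number of arrays limits the precision.

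The large minus small difference of each of the 12 extracts was the response in limma 3.58.1 (R 4.3.3; functions lmFit and eBayes), with 1 mean per time and 8 residual degrees of freedom, and p-values were adjusted after Benjamini and Hochberg over all 12635 probe sets. Tests were the mean of the 4 times, each time, light minus dark (12pm and 6pm against 12am and 6am) and an F test among times. SE values are from this fit. The fractions were paired by equal number. After group means were removed, large and small arrays of equal time and number correlated at 0.199 to 0.619 in all 12 pairs, above the threshold of 0.1. Those of different number had a median r of -0.268 and a highest r of 0.183. With the mean of 3 replicates removed, a positive r of equal number forces lower values elsewhere, so that median is no separate support. Whether both arrays of a pair come from 1 extract was not tested. Paired differences of equal number at different times correlated weakly (median r = 0.112), so numbers may run across times. On data simulated for the mean of the 4 times, 161 of 200 changed probe sets (80.5%) were recovered, with 6 false calls among the unchanged ones. The simulation changed only 200 of 12635 probe sets by fixed amounts, with noise drawn separately for each. In the data 66.7% were called, so these rates need not hold there.

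The arrays, members and lists were chosen with earlier results of these data known. The rule for named genes took 10 rises and 10 falls of the greatest size. These had 1 sign in all 12 extracts and both means of 5 or more. It also took the 3 members of each list with the smallest p, the extremes among short and long genes and the clock gene. A further 6 genes had the smallest p in the F test among those with a mean of 5 or more in both fractions at every time. The text gives a part of them. Other list members and nuclear genes with a symbol were added after their values were seen. Protein length was to be compared with the difference, and gene span took its place after the data were seen. Families whose members carry only locus identifiers (cytosolic ribosomal proteins, aquaporins and others) have no list. Alternatives were other blocks, filters, scalings and moderation, 1 probe set per gene, and leaving out replicates, extracts or times. Figures were drawn with matplotlib.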

Additional observations from a re-analysis of the deposited data

Results flagged for a closer look

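The difference between large and small polysomal arrays varied among the 4 times for 74 probe sets and between light and dark for 28, both by tests of the difference itself in limma. Unadjusted p was under 0.05 for 2258 probe sets in the F test and for 1580 between light and dark. Of the 74, 26 had a group mean under 5 at some time, where the scale is compressed, and 50 had differences of both signs. The named genes among them are given by the range of their 4 differences (log2). It was 2.71 for EXPA16, whose group means are under 5 except on the large arrays at 6am. It was 1.27 for AT4G32590, 1.18 for AT5G66590, 1.17 for RAB6A, 1.14 for AT5G05710, 1.12 for AT4G24440, 0.98 for AT3G53470 and 0.89 for UGT78D2. The 12pm extract of replicate 1 lay nearer to the 6am extracts than its fellow replicates for RAB6A (0.40, against 0.08 and -0.47) and AT4G32590 (1.14, against 0.33 and 0.14). Adjusted p of the 8 genes lay between 0.017 and 0.049.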

How the results depend on the processing

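For the 180 named genes under 32 alternatives other than the spike-in shift, 5727 values could be had. Of these 5605 kept their side of the threshold, 91 lost the call, 30 gained it and 1 changed sign with a call. A change of sign with no call in either setting was counted among the 5605. The 1 that turned was AT3G53470, not called over the 4 times (0.03), which was -0.1851 without the 6am arrays. At equal spike-in signal, 51 of the 77 named falls were called higher, 11 more lay above 0, 4 lay under 0 without a call and 11 stayed lower, while all 86 named rises stayed higher. Of the 47 gene lists, 38 had a count of called members that moved by over 1.5 times under at least 1 alternative, and 12 had a median that changed sign, none of them over 0.182 in size. Over the mean of the 4 times, the spike-in shift gave 12416 higher and 22 lower, 10330 of at least 2-fold and a median of 1.38; values of lists under it are relative to this median. With 1 probe set per gene, 4512 were called, 2068 higher and 2444 lower, 342 by at least 2-fold. Leaving out single extracts or replicate numbers gave 6805 to 8350 calls (3382 to 4271 higher, 3423 to 4151 lower, 559 to 637 of at least 2-fold). The F test depended most on the setting: 4 probe sets with no replicate block, 5 with all 36 arrays, 286 with the replicate block as a random effect (consensus correlation 0.387), 238 with the numbers as a replicate block, 141 with the filter at 7, 32 with cyclic loess, 29 with quantile normalization, 49 with spike-ins, 15 with 1 probe set per gene, 2 without 6am, 245 without 12pm, 8 without 6pm, 13 without 12am, and 0 to 258 on leaving out replicates. Light minus dark gave 3 with no replicate block, 4 with all 36 arrays, 45 with the numbers block, 5 with both means of 5 or more, 2 with spike-ins, 17 with the trended robust fit, 11 with 1 probe set per gene, and 1 to 170 on leaving out replicates. With no replicate block 3030 were called at 6am, 3132 at 6pm and 2187 at 12am; with all 36 arrays 2707, 3174, 2780 and 1862 at the 4 times in order; with spike-ins 10367, 10903, 12387 and 12409; with 1 probe set per gene 2456, 2793, 2557 and 2209; on leaving out replicates 2421 to 4962, 2866 to 5551, 2508 to 5002 and 1402 to 4406. The causes were not tested. Protein length was not run, because no table of proteins was used here. Low values are compressed at the end of the scale shared by all arrays, which limits differences of genes under 5.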
